A study of Mus musculus with 8 samples.

Results

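The genes described here are 10 genes of MHC class II antigen presentation, namely H2-Aa, H2-Ab1, H2-Eb1, H2-DMa, H2-DMb1, H2-Oa, H2-Ob, Cd74, Ciita and Ctss. They were taken by symbol from a table of 55450 mouse genes, and all 10 were found, each with 1 Ensembl identifier. RNA was sequenced from dendritic cells induced in culture from the bone marrow of mice labelled SS dry eye. One group was stimulated with S100A8/A9 as recombinant protein, a pair of calcium-binding proteins that myeloid cells release in inflammation, and the other received phosphate-buffered saline, called vehicle here. Strain, age, sex, dose and time of treatment are not given in the labels used here, and all libraries share the disease model. Each group held 4 libraries, numbered 1 to 4, and nothing says whether they came from separate animals or cultures, so p-values measure the spread between these libraries, which may be technical. Replicates 1 to 3 of both groups share 1 expression table, and replicate 4 of both groups comes from a table of 24848 genes made separately.

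MHC class II molecules carry peptides from endosomes to the cell surface, where CD4 T cells read them. An alpha and a beta chain assemble around the invariant chain, which blocks the groove until proteases trim it to a short fragment called CLIP. The DM heterodimer then exchanges CLIP for other peptides, and the DO heterodimer restrains DM. Ciita encodes the transcriptional coactivator that, with the RFX, CREB and NF-Y factors bound at class II promoters, switches these genes on. Dendritic cells are known for abundant class II, and B cells are known for DO. The study asked which signalling pathways S100A8/A9 engages in dendritic cells, in the setting of a Th17 response.

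The cell type label says dendritic cell, but the titles call the samples BMDMs, a term that commonly stands for macrophages from bone marrow. Values are in FPKM, fragments per kilobase of exon scaled to the size of the library. Levels of different genes on this scale depend on the exon length taken for each gene. Among 9 dendritic cell markers, 5 were at 1 FPKM or more in all 6 libraries of replicates 1 to 3. Itgax lay between 47.23 and 66.86 FPKM and Ccr7 between 141.4 and 227 FPKM in those libraries, while Cd209a was listed at 0, and Flt3, Clec9a and Xcr1 stayed below 1 FPKM. All 9 macrophage markers were above 1 FPKM, and their summed level was 580.5 to 998.1 FPKM with S100A8/A9 and 536.4 to 949 FPKM with vehicle. Of 8 B cell markers, 2 were at 1 FPKM or more in all 6 libraries, Ighm at 3.983 to 5.455 FPKM and Cd22 at 1.169 to 2.856 FPKM. Cd79a reached 1.183 FPKM in S100A8/A9 replicate 3, while Cd79b, Ms4a1, Pax5 and Ebf1 were below 1 FPKM in all 6, and the list summed to 7.991 to 10.03 FPKM with S100A8/A9 and 8.754 to 9.352 FPKM with vehicle. In bulk RNA, fewer cells of a type and less RNA per cell cannot be told apart.

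Of the 10 genes, 7 lie within 224 kb on chromosome 17, from 34092340 to 34316674 in the mm10 build, in the class II region of the mouse MHC. H2-Aa lies there on the reverse strand from 34282744 to 34287823, and H2-Ab1 lies on the forward strand from 34257689 to 34269419. Stretches of 3 promoters are shown, since H2-Aa and H2-Eb1 were among the highest of the locus genes in these libraries and H2-Ob the lowest, from position -110 to -40 relative to the RefSeq start in build GRCm38.p6. Capitals mark ATTGG, the reverse of CCAAT that forms the core of the Y box bound by NF-Y, and AGNAAC, a loose core of the X box bound by RFX. The stretches are chr17:34287863-34287933 on the reverse strand for H2-Aa, chr17:34305757-34305827 on the forward strand for H2-Eb1 and chr17:34238795-34238865 on the forward strand for H2-Ob.
H2-Aa: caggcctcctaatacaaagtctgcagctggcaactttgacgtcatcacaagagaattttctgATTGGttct
H2-Eb1: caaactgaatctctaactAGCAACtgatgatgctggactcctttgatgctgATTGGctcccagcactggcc
H2-Ob: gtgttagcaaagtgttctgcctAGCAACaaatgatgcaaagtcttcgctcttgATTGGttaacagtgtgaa

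Motif hits were listed for 7 of the 10 genes, in RefSeq windows of 300 bases, 250 before to 50 after the start. No window was at hand for H2-Ab1 or Ciita, and windows on chromosome 18, where Cd74 lies, were left out of this listing. Each motif was searched on both strands. On either strand, CCAAT was present in 37.4% of all 32851 windows, AGNAAC in 48.1% and the stricter AGCAACA in 5.35%. The reverse CCAAT began 48 bases before the start in H2-Aa (position -48), and at -59 in H2-Eb1, -61 in H2-DMb1, -57 in H2-Ob and -43 in H2-Oa. AGNAAC on the strand of the gene began at -92 in H2-Eb1, -95 in H2-DMb1, -88 in H2-Ob and -77 in H2-Oa. The reverse of AGNAAC also matched, at -1 in H2-Oa and at 2 in H2-DMb1. Neither AGNAAC nor AGCAACA matched the H2-Aa window. AGCAACA, which overlaps AGNAAC, matched in H2-Oa and H2-Ob. The pair of AGNAAC with ATTGG starting 31 to 34 bases after it, a spacing chosen after these windows were seen, was in 0.113% of all windows. Ctss held none of the motifs, and neither did the H2-DMa window with the lower coordinate. The other H2-DMa window held the reverse CCAAT at -198 and the reverse of AGNAAC at 2.

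None of the class II genes passed the test with S100A8/A9, and their levels in the 2 groups overlapped. The test was limma-trend on log2(FPKM + 1) in replicates 1 to 3, restricted to genes that reached 1 FPKM in 3 or more of the 6 libraries, with a Benjamini-Hochberg adjusted p under 0.05 over all genes. H2-Ob failed the filter, so 9 of the 10 genes were among the 11387 tested. Of these 9, 0 were called, against 0% of all genes tested, where 0 genes were called and 344 had an unadjusted p under 0.05. With the replicate number as a block, which compares libraries of the same number, 0 of the 9 were called, against 0.518% of all genes (59 genes). Of all genes, 0.501% were called higher and 0.0176% lower with S100A8/A9 under the block. The 59 calls became 0 with replicate 4 added to the blocked fit, and 42, 95 and 5 without replicate 1, 2 or 3. In the groups of 3 libraries, 0 of the 9 genes were free of overlap, against 6.65% of all genes. The adjusted p in limma was 0.9998 for each of the 9 without the block and lay between 0.8052 and 0.999 with it. The median log2 change over the 9 was 0.0045, against 0.025 over all genes tested.

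The chains that form the surface molecule had high and nearly matched levels in the 2 groups. H2-Aa, the alpha chain of I-A, was at 714.3, 524.6 and 459.2 FPKM in S100A8/A9 replicates 1, 2 and 3, against 712.5, 533.4 and 441.7 FPKM in vehicle replicates 1, 2 and 3. In both groups replicate 1 was high and replicate 3 low, and the 2 libraries of a number lay close together. Its mean was 566 ± 132 FPKM with S100A8/A9 and 562.5 ± 138 FPKM with vehicle (SD, n = 3 each). The log2 change was 0.012, with a 95% interval from -0.51 to 0.54 without the block and from -0.11 to 0.13 with it. The blocked interval corresponds to ratios of 0.928 to 1.10 on the scale of FPKM + 1.

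H2-Ab1, the beta chain that pairs with H2-Aa, was at 671.2, 375.3 and 326.8 FPKM with S100A8/A9, against 670.2, 402.3 and 335.8 FPKM with vehicle, in the same order of replicates. Replicate 1 again stood far above the other two in both groups. The within-number ratios of S100A8/A9 to vehicle were 1.00, 0.933 and 0.973, and the blocked 95% interval of the log2 change ran from -0.17 to 0.08. H2-Eb1, the beta chain of I-E, was at 399.7, 297.5 and 278.4 FPKM with S100A8/A9, against 392.8, 322.3 and 236.2 FPKM with vehicle. Its ratios of 1.02, 0.923 and 1.18 lay on both sides of 1, and the blocked interval of its log2 change was -0.13 to 0.23. H2-Ea, the gene of the I-E alpha chain, which several laboratory strains do not express, bears the pseudogene name H2-Ea-ps in the annotation used. It was listed at 0 in all libraries of replicates 1 to 3 other than vehicle replicate 3, at 0.1695 FPKM. Whether I-E forms in these cells was not tested.

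**Figure D1:**
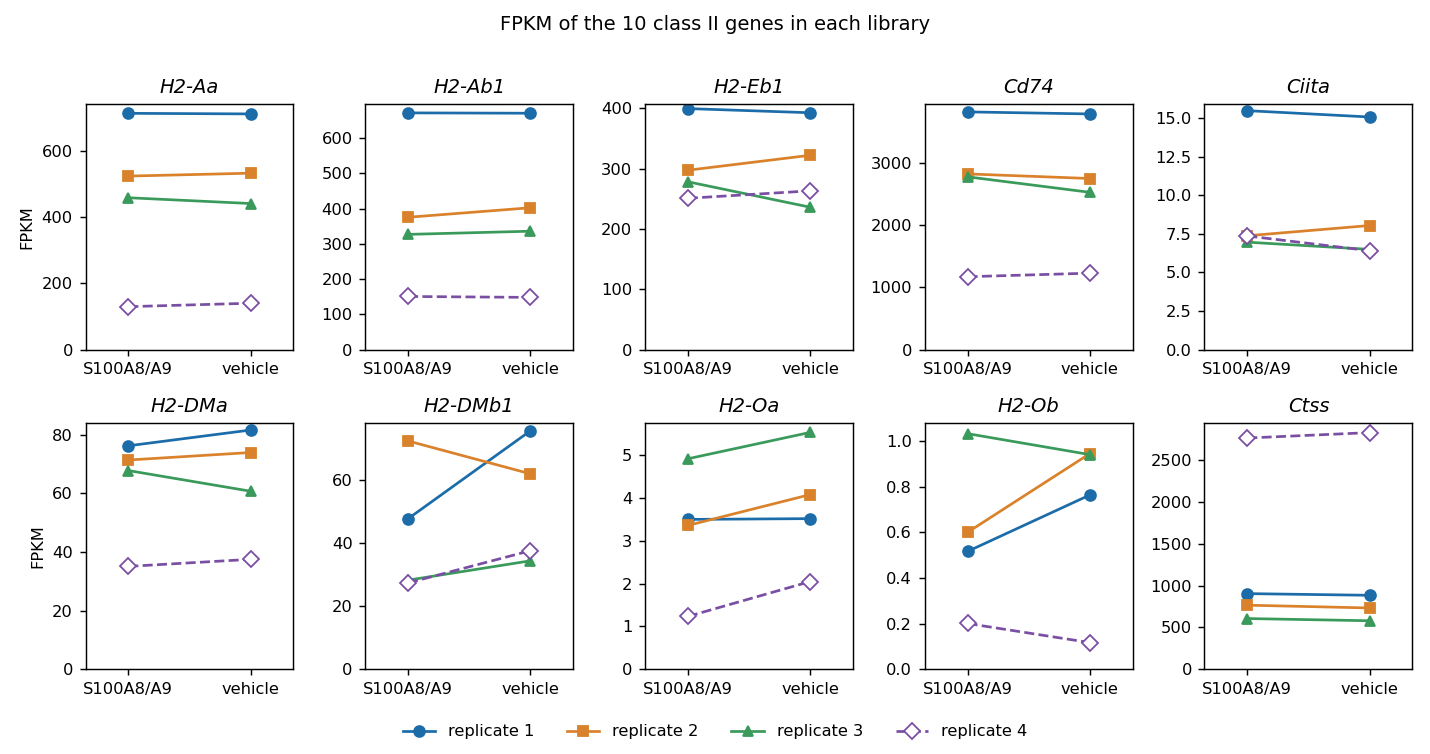
FPKM of the 10 class II genes in each library, with S100A8/A9 on the left and vehicle on the right of each panel, and a line joining libraries of the same replicate number. Open diamonds with dashed lines are replicate 4, from the separately made table. The lines of H2-Aa, H2-Ab1, Cd74, Ciita and Ctss run nearly level, and replicate 1 lies above replicates 2 and 3 in each of these panels.

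Cd74, the invariant chain that escorts class II through the cell and whose gene is on chromosome 18, was the most abundant of the 10 in replicates 1 to 3. It was at 3823, 2826 and 2779 FPKM with S100A8/A9, against 3790, 2752 and 2530 FPKM with vehicle. Its ratios of 1.01, 1.03 and 1.10 were all above 1, and its blocked 95% interval of the log2 change was -0.07 to 0.19 (adjusted p = 0.861 in limma with the block). Ctss, on chromosome 3, encodes cathepsin S, the protease that trims the invariant chain to CLIP. It was at 905.4, 766.9 and 606.9 FPKM with S100A8/A9, against 885.4, 733.6 and 580.4 FPKM with vehicle. Its ratios of 1.02, 1.05 and 1.05 were small beside the spread between replicate numbers, with means of 759.7 ± 149 and 733.1 ± 152 FPKM in S100A8/A9 and vehicle libraries (SD, n = 3 each). The blocked interval of its log2 change was -0.06 to 0.17. Cd74 and Ctss were the 2 of the 9 tested genes that were higher with S100A8/A9 in each of the 3 numbers, against 19.4% of all genes. In replicate 4 both lay lower with S100A8/A9, at ratios of 0.954 and 0.977.

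Ciita, the coactivator of the group, on chromosome 16, was at 15.47, 7.37 and 6.96 FPKM with S100A8/A9, against 15.06, 8.04 and 6.49 FPKM with vehicle. Replicate 1 was about as far above the others in S100A8/A9 as in vehicle libraries. The ratios were 1.03, 0.918 and 1.07, and the log2 change of 0.0045 had a blocked 95% interval from -0.18 to 0.19, or ratios of 0.881 to 1.14 on the scale of FPKM + 1. In replicate 4 Ciita was at 7.36 FPKM with S100A8/A9 and 6.41 FPKM with vehicle, from 2344 and 1948 reads.

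The genes of peptide exchange were expressed below the chains of the surface molecule. H2-DMa, the alpha chain of the exchange factor DM, was at 76.16, 71.31 and 67.72 FPKM with S100A8/A9, against 81.54, 73.87 and 60.67 FPKM with vehicle. Its ratios were 0.934, 0.965 and 1.12, and the blocked interval of its log2 change was -0.16 to 0.17. H2-DMb1, a beta chain of DM, was at 47.82, 72.53 and 28.3 FPKM with S100A8/A9, against 75.76, 62.09 and 34.45 FPKM with vehicle. The within-number ratios were 0.631, 1.17 and 0.821, so the direction differed between numbers. The log2 change was -0.24 ± 0.15 (SE with the block) and its blocked 95% interval, -0.60 to 0.13, was the widest of the 9 genes.

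H2-DMb1 has a close neighbour, H2-DMb2, which encodes another DM beta chain. The longest protein-coding transcripts of both genes were identical at 88.7% of 1217 aligned bases, with an identical run of 221 bases, which is longer than the RNA fragments of 100 to 200 bases that were sequenced. The split of reads between the pair is therefore uncertain. H2-DMb2 was at 46.02, 39.24 and 41.95 FPKM with S100A8/A9, against 43.46, 44.78 and 30.43 FPKM with vehicle. The sum of the pair had within-number ratios of 0.787, 1.05 and 1.08 in replicates 1, 2 and 3. In replicate 4 the ratio of the sum was 0.813, from 67.55 FPKM with S100A8/A9 and 83.09 FPKM with vehicle. Tested as 1 feature in replicates 1 to 3, an alternative added once the values were known, the sum had a log2 change of -0.06 (adjusted p = 0.942 in limma with the block).

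H2-Oa and H2-Ob encode the alpha and beta chains of DO. H2-Oa was at 3.504, 3.36 and 4.92 FPKM with S100A8/A9, against 3.52, 4.08 and 5.54 FPKM with vehicle. It was the 1 gene of the 9 that was lower with S100A8/A9 in each number, with ratios of 0.995, 0.823 and 0.889, against 9.62% of all genes. Its log2 change of -0.12 had a blocked 95% interval from -0.35 to 0.10 and did not pass the test (adjusted p = 0.840 in limma with the block). H2-Ob was the lowest of the 10, at 0.516, 0.5998 and 1.03 FPKM with S100A8/A9, against 0.763, 0.945 and 0.940 FPKM with vehicle. The low libraries of H2-Ob were S100A8/A9 replicates 1 and 2, and the groups overlapped.

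**Figure D2:**
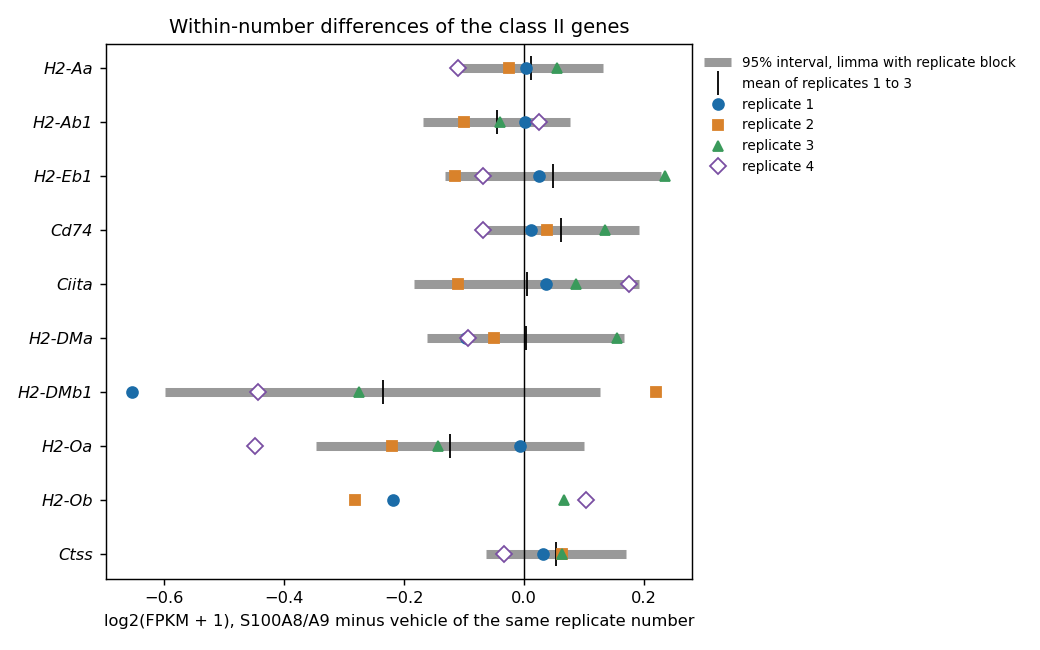
Difference in log2(FPKM + 1) between the S100A8/A9 and vehicle libraries of the same number for each gene, with open diamonds for replicate 4. Black ticks are the means over replicates 1 to 3 and grey bars the 95% intervals of limma with the replicate block, absent for H2-Ob, which was not tested. The bars of all 9 tested genes include 0, and H2-DMb1 has the widest, from -0.60 to 0.13.

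Replicate 4 had 1 library per group and no test. About 33400000 reads for S100A8/A9 and 31900000 reads for vehicle were implied by its low values. H2-Aa was at 130 FPKM with S100A8/A9 and 140.4 FPKM with vehicle, a ratio of 0.926 from 16493 and 17006 reads. The ratio was 1.02 for H2-Ab1, 0.953 for H2-Eb1 and 0.936 for H2-DMa, within 10% of 1 as for Cd74 and Ctss. H2-DMb1 was at 27.42 FPKM with S100A8/A9 and 37.66 FPKM with vehicle, and H2-Oa at 1.23 FPKM with S100A8/A9 and 2.05 FPKM with vehicle. These 2 genes were lower with S100A8/A9 here, H2-Oa from only 58 reads with S100A8/A9 and 92 reads with vehicle. H2-Ob, from 36 and 20 reads, was at 0.2003 FPKM with S100A8/A9 and 0.117 FPKM with vehicle, a direction opposite to replicates 1 and 2.

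Levels of the genes fell in tiers. Over the 6 libraries of replicates 1 to 3 the order by mean FPKM was Cd74 (3083), Ctss (746.4), H2-Aa (564.3), H2-Ab1 (463.6), H2-Eb1 (321.2), H2-DMa (71.88), H2-DMb1 (53.49), Ciita (9.90), H2-Oa (4.16) and H2-Ob (0.799). The ranges of neighbours overlapped from Ctss through H2-Eb1 and between H2-DMa and H2-DMb1. Within each of the 6 libraries, however, Ctss was above H2-Aa, H2-Aa above H2-Ab1 (ratios of 1.06 to 1.40) and H2-Ab1 above H2-Eb1, while H2-DMb1 was above H2-DMa in S100A8/A9 replicate 2 and below it in the other 5. Cd74, the DM pair, Ciita, H2-Oa and H2-Ob each kept to a range of their own. In replicate 4 the order differed at the top. Ctss, at 2769 FPKM with S100A8/A9 and 2834 FPKM with vehicle, was above Cd74 at 1173 and 1230 FPKM. H2-Eb1 was above H2-Ab1 and H2-Aa there. In S100A8/A9 replicate 4, H2-Aa at 130 FPKM had an implied 16493 reads, and H2-Eb1 at 251 FPKM had 16300. Their exon lengths in the annotation used were 3798 and 1944 bases. The lengths behind replicates 1 to 3 are not known, so the order of genes may depend on them, which was not tested.

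Some ratios of these genes within a library differed between the 2 tables and others did not. H2-Aa over H2-Eb1 lay between 1.65 and 1.87 in the 6 libraries of replicates 1 to 3, and was 0.518 in S100A8/A9 replicate 4 and 0.533 in vehicle replicate 4. H2-Ab1 over H2-Eb1 was 1.17 to 1.71 in replicates 1 to 3, and 0.601 and 0.563 in S100A8/A9 and vehicle replicate 4. Ctss over Cd74 was 0.218 to 0.271 in replicates 1 to 3, and 2.36 and 2.30 in S100A8/A9 and vehicle replicate 4. Cd74 over H2-Aa moved less, with 5.16 to 6.05 in replicates 1 to 3, and 9.03 and 8.76 in S100A8/A9 and vehicle replicate 4. H2-DMb1 over H2-DMb2 was 0.683 in S100A8/A9 replicate 4 and, as in vehicle replicate 4, lay inside the 0.675 to 1.85 of replicates 1 to 3. H2-DMa over H2-Oa was 28.4 in S100A8/A9 replicate 4 and 18.3 in vehicle replicate 4, the second of these inside the 11 to 23.2 of replicates 1 to 3. Of low values in replicate 4, 98.77% in the S100A8/A9 library and 98.55% in the vehicle library were whole multiples of 1 read, within 0.01 reads, against 5.329% to 6.137% in replicates 1 to 3. The 2 tables were thus not made alike, and the tables cannot be told apart from the replicate number.

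**Figure D3:**
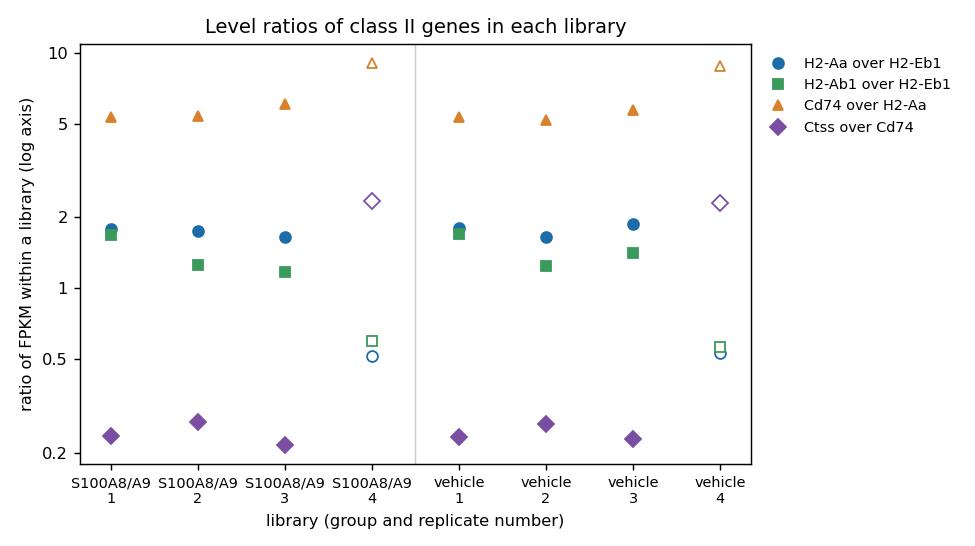
Ratio of the FPKM of 2 class II genes within each library, on a log axis, with filled points for replicates 1 to 3 and open points for replicate 4. In both groups Ctss over Cd74 is 0.218 to 0.271 in the filled points and 2.36 or 2.30 in the open ones, and H2-Aa over H2-Eb1 falls below 1 in the open points only.

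Most of the variation of these genes followed the replicate number. Over the 6 libraries of replicates 1 to 3, the replicate number held 99.6% of the sum of squares of log2(FPKM + 1) for H2-Aa, 99.5% for H2-Ab1, 99.2% for Ciita, 98.7% for Ctss and 96.97% for Cd74. The median over all genes tested was 63.6%. Treatment held 0.0023% for Ciita, 0.047% for H2-Aa and 0.27% for H2-Ab1, against a median of 6.96% over all genes, and the largest share among the 9 was 7.90% for H2-Oa. The SD of log2(FPKM + 1) over the 6 libraries was 0.30 for H2-Aa, 0.48 for H2-Ab1 and 0.52 for Ciita, against a median of 0.17 over all genes. H2-DMa, at 0.15, lay below that median, and the highest of the 9 was H2-DMb1 at 0.57.

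**Figure D4:**
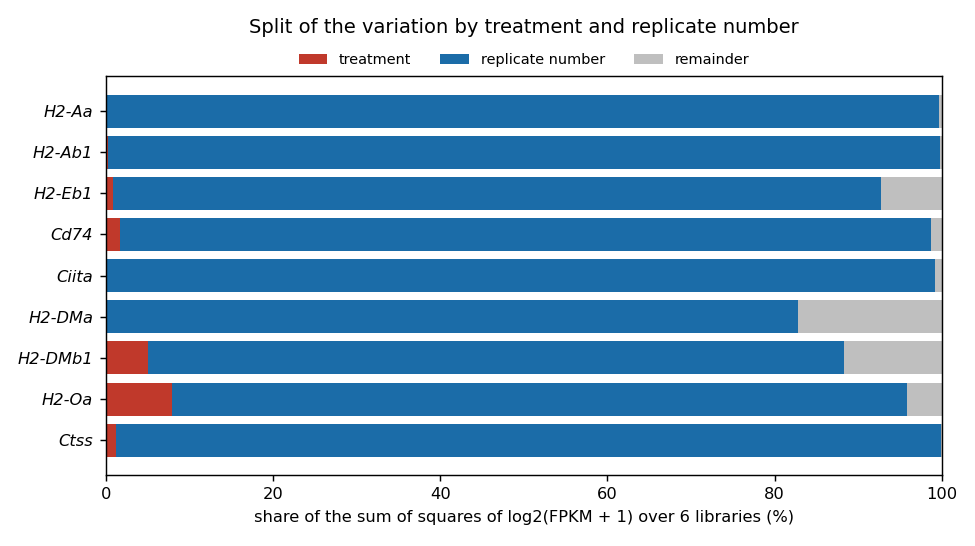
Share of the sum of squares of log2(FPKM + 1) over the 6 libraries of replicates 1 to 3 that goes with treatment (red), with replicate number (blue) and with neither (grey), for the 9 tested genes. Blue takes 82.8% or more of each bar, and red is widest for H2-Oa at 7.90%.

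Other genes had the same pattern over these libraries. The mean log2(FPKM + 1) of H2-Aa, H2-Ab1, H2-Eb1 and Cd74 was correlated with each gene over the 6 libraries, which are 3 numbers in 2 groups from 1 table, so the values only describe. Pearson's r was 0.99 for Ciita, 0.94 for Ctss, 0.88 for H2-DMa, 0.54 for H2-DMb1 and -0.75 for H2-Oa, and 5.19% of all genes had an r of 0.9 or more. Pdia6 and Pdia4, disulfide isomerases of the endoplasmic reticulum, had r of 0.9974 and 0.9961, and Hsp90b1, a chaperone there, had 0.9955. Tnfrsf13b, a receptor of the B cell factors BAFF and APRIL, had r of 0.9958, Gpx3, a secreted glutathione peroxidase, had 0.9949, and Slc36a2, an amino acid transporter, had 0.9947. Pdia6 was at 92.96, 54.91 and 47.49 FPKM with S100A8/A9, against 93.08, 54.49 and 44.1 FPKM with vehicle, so replicate 1 was high in both groups as it was for H2-Aa.

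Cell type markers moved with the replicate number as well. The summed macrophage markers were at 998.1, 682.3 and 580.5 FPKM in S100A8/A9 replicates 1, 2 and 3, against 949, 682.4 and 536.4 FPKM in vehicle replicates 1, 2 and 3. The summed neutrophil markers ran the other way, at 15.21, 63.29 and 137.7 FPKM with S100A8/A9, against 13.26, 55.82 and 151.2 FPKM with vehicle. Most of that sum was S100a8, while Ly6g, Mpo, Elane, Ngp, Camp, Ltf and Cxcr2 stayed below 1 FPKM in replicates 1 to 3. The sum therefore does not stand for neutrophil markers as a set. Replicate 1, where H2-Aa and Ciita were high, thus had a high macrophage sum in both groups. S100a8 was lowest there among replicates 1 to 3, at 11.37 FPKM with S100A8/A9 and 9.72 FPKM with vehicle. The summed dendritic markers were at 253.6, 218.9 and 328.6 FPKM with S100A8/A9 and 256.2, 219.1 and 300 FPKM with vehicle, mostly from Ccr7. Ccr7, Irf4, Batf3 and Zbtb46 were highest in replicate 3 of both groups. Itgax was highest in replicate 1 of both, at 62.52 FPKM with S100A8/A9 and 66.86 FPKM with vehicle. The part of these markers in the class II levels was not tested.

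Genes around the pathway were listed by role, and no list had a call in either direction with or without the block. The factors that bind class II promoters with Ciita had 0 of 10 tested genes called and a median log2 change of 0.07. Among them Creb1, a factor of the X box complex, was at 5.19, 6.91 and 5.96 FPKM with S100A8/A9, against 4.85, 4.54 and 4.74 FPKM with vehicle. Its groups did not overlap in replicates 1 to 3, and its ratio was 1.00 in replicate 4. It did not pass the test (log2 change 0.29 ± 0.11, SE with the block, adjusted p = 0.541 in limma with the block). Kat2b, a histone acetyltransferase, was at 4.94 ± 0.063 FPKM with S100A8/A9 and 4.27 ± 0.313 FPKM with vehicle (SD, n = 3 each; adjusted p = 0.720 in limma with the block). Rfx5, whose product binds the X box, had a log2 change of 0.06.

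Genes that carry interferon and lineage signals to Ciita had 0 of 8 tested genes called and a median log2 change of 0.08. Ifngr1, a chain of the interferon-gamma receptor, was at 43.05 ± 2.44 FPKM with S100A8/A9 and 47.19 ± 3.38 FPKM with vehicle (SD, n = 3 each; adjusted p = 0.704 in limma with the block).

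Endosomal antigen processing had 0 of 9 tested genes called, with log2 changes from 0.02 to 0.22. Sppl2a, the protease that clears the remaining membrane stub of the invariant chain, was at 40.1, 33.3 and 29.9 FPKM with S100A8/A9, against 28.64, 28.83 and 30.28 FPKM with vehicle (adjusted p = 0.679 in limma with the block). Ctsh, an aminopeptidase of the lysosome, had ratios of 1.03, 1.09 and 1.07 (adjusted p = 0.788 in limma with the block). Class II turnover and the partners of Cd74 had 0 of 6 tested genes called, with log2 changes from -0.02 to 0.06. Of these, Marchf1, listed under its older name March1, encodes the ubiquitin ligase that removes class II from the surface, and was at 11.59 ± 2.5 FPKM with S100A8/A9 and 10.92 ± 0.93 FPKM with vehicle (SD, n = 3 each). Cxcr4, which can act with Cd74 as a receptor for Mif, had a log2 change of 0.06 (adjusted p = 0.894 in limma with the block). H2-DMb2 was the 1 gene tested of 4 other class II locus genes, and H2-Eb2, Btnl2 and H2-Ea reached at most 0.272 FPKM in any library.

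The class I pathway was set beside class II, since Nlrc5 does for class I what Ciita does for class II. Its list had 0 of 9 tested genes called, a median log2 change of 0.23, and 7 genes higher with S100A8/A9 in each number, against 19.4% of all genes. Nlrc5 was at 19.64, 20.57 and 17.82 FPKM with S100A8/A9, against 10.96, 15.23 and 13.11 FPKM with vehicle. Its groups did not overlap, its log2 change was 0.54 ± 0.094 (SE with the block) and limma with the block gave an adjusted p of 0.0975. Tap1, a peptide transporter gene that lies in the class II region, was at 45.83, 45.47 and 44.49 FPKM with S100A8/A9, against 28.43, 35.66 and 33.61 FPKM with vehicle (adjusted p = 0.0914 in limma with the block). In replicate 4 the ratio was 1.19 for Nlrc5 and 1.02 for Tap1. The difference between the class I and class II genes was not tested.

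**Figure D5:**
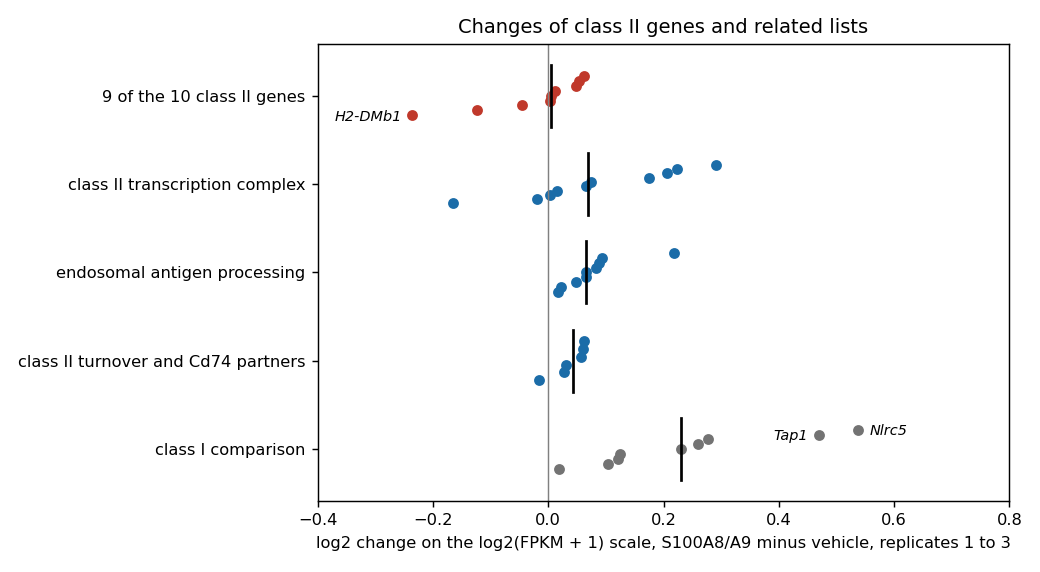
Log2 change of each tested gene on the log2(FPKM + 1) scale, S100A8/A9 minus vehicle in replicates 1 to 3, by list, with a black line at each list's median. The medians are 0.0045 for the 9 tested class II genes and 0.23 for the class I genes in these 5 lists, and no gene shown passed the adjusted threshold.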

How the data were processed

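Libraries were made, per the labels' protocols, from poly(A) RNA cut into pieces of 100 to 200 bases and primed at random, for Illumina sequencing. Strand marking is not mentioned, so a gene and one overlapping it or antisense to it may share reads. HISAT2, Subread with featureCounts, DESeq2 1.34.0 and mm10 appear in the submitters' processing notes, without their roles. The authors deposited FPKM per gene; no header names the unit, which was read from the values. The authors deposited 2 tables, for replicates 1 to 3 and for replicate 4. Depth is not stated; the low values implied 22800000 to 25700000 reads in replicates 1 to 3, a rough estimate, since few values there were whole multiples of 1 read.

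Symbols and positions came from GENCODE M21, of the same build, with newer symbols matched through RefSeq synonyms. limma 3.58.1 in R 4.3.3 was run on log2(FPKM + 1) with group as the term, on genes reaching 1 FPKM in 3 or more of 6 libraries, with FPKM as deposited. Fold changes on this scale understate changes of low genes. The labels do not say what a replicate number marks. Deviations from the group means correlated at -0.531 to -0.01 between libraries of different numbers. These negative values are no separate evidence, since deviations from a group mean cancel within the group. Between libraries of the same number the correlations were 0.595, 0.255 and 0.520, each over 0.1. The numbers were therefore taken to pair the libraries, and the blocked fit is given beside the main one. The fits were also run on simulated data built with a shared effect of each replicate number, so that run cannot speak to the pairing. Its outcome is not given here.

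The genes and lists were chosen with earlier results of these data known. Named genes are the 10 members, for each list any called gene or else the 2 with the smallest p with the block, and the 6 genes with the highest correlation over 5 FPKM, leaving out predicted models. Rfx5, the class II locus genes at or near 0 and the cell markers are named as background. Some genes that the lists hold are not reported here by name. Protein sequences were not used here.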

Additional observations from a re-analysis of the deposited data

Results flagged for a closer look

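In each group the 4 libraries of each gene were checked for 1 library far from the other 3 (a gap to the nearest, as a share of the whole range, above Dixon's 95% critical value), on the deposited FPKM. Of 20 gene and group combinations, 3 were found, where chance gives about 1. Ctss in replicate 4 stood at 2769 FPKM with S100A8/A9 and at 2834 FPKM with vehicle, far above replicates 1 to 3 of each group, and replicate 4 comes from the separately made table. Ciita in S100A8/A9 replicate 1 stood at 15.47 FPKM, against 6.96 to 7.37 FPKM in the other 3 libraries of that group; vehicle replicate 1 was at 15.06 FPKM.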

How the results depend on the processing

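No class II gene and no gene of the pathway lists was called under any alternative run. Over all genes the count was 0, against 59 with the replicate block, 0 with the block and all 8 libraries, and 0 to 95 without single libraries or numbers, namely 1 without vehicle replicate 2, and, with the replicate block, 42 without replicate 1, 95 without replicate 2 and 5 without replicate 3. The block changed no call among the class II genes. The direction of several near-zero log2 changes turned, in 13 of 72 values from settings that kept all 6 libraries. For H2-Aa it was -0.019 with all 8 libraries, with the table or the replicate block as a term, -0.012 with median-of-ratios factors, -0.010 with upper-quartile factors and -0.0082 with a common sum. For H2-DMa these were -0.021, -0.021, -0.019 and -0.017, and for Ciita, which kept its sign with all 8 libraries, -0.016, -0.014 and -0.014 with the 3 scalings. Leaving out single libraries or numbers gave -0.17 to 0.20 for H2-Aa, -0.36 to 0.24 for H2-Ab1, -0.15 to 0.22 for H2-Eb1, -0.11 to 0.096 for H2-DMa, -0.56 to 0.11 for H2-DMb1 (above 0 without S100A8/A9 replicate 3), -0.26 to 0.026 for H2-Oa, -0.087 to 0.24 for Cd74, -0.33 to 0.33 for Ciita and -0.10 to 0.21 for Ctss. With the replicate block and without replicate 3, the log2 change was -0.010 for H2-Aa, -0.045 for H2-Eb1, -0.074 for H2-DMa and -0.037 for Ciita, and Ciita was at -0.011 without replicate 1. Fits that leave out 1 library leave the groups with unequal replicate numbers. Across all alternatives the smallest adjusted p of a class II gene was 0.183 in limma. H2-Ob and, in replicate 4, H2-Oa rest on few reads. The cause of these moves was not tested.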
